A study of Mus musculus with 30 samples.

Results

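The genes described here are 9 genes of polyamine metabolism, Odc1, Amd1, Srm, Sms, Azin1, Oaz1, Oaz2, Sat1 and Smox, taken as their rows in a table of 55487 mouse Ensembl genes. The rule that picks them goes by name and place in the pathway, and they were chosen with earlier results of these data known. All 9 passed the filter on low counts that left 15907 genes for testing. RNA was sequenced from C2C12 myotubes, the multinucleated fibres formed by a mouse myoblast line when it is differentiated in culture. All 30 libraries come from this 1 line, and there were 6 replicates in each of 5 groups.

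Every culture was differentiated for 4 days in medium with 2% horse serum and then treated for 4 days, so that cells were taken at 8 days. The 2% HS group stayed in 2% horse serum. The SD group was deprived of serum, without drug or added leucine. The MET group was serum-deprived with 100 nM metformin, an antidiabetic drug. The LEU group was serum-deprived with 500 nM leucine, a branched-chain amino acid. The MET+LEU group was serum-deprived with 100 nM metformin and 500 nM leucine together. SD vs. 2% HS asks what serum loss does to the myotubes, and each treatment vs. SD asks what the treatment does during serum loss. Nothing in the labels says that the replicates were separate cultures, so the p-values measure the spread between these libraries, which may be technical. In bulk RNA, fewer cells of a kind and less RNA per cell cannot be told apart.

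Polyamines (putrescine, spermidine and spermine) are small, positively charged molecules that bind RNA and DNA and are needed for growth and translation. Ornithine is decarboxylated to putrescine, aminopropyl groups taken from decarboxylated S-adenosylmethionine turn putrescine into spermidine and spermidine into spermine, and oxidation or acetylation runs the chain backwards. In muscle, ornithine decarboxylase and polyamine levels are known to follow androgens and fibre size. Much of the control of the pathway is on translation and protein turnover, through antizymes that bind ornithine decarboxylase and send it to the proteasome, and none of that is seen by RNA counts.

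Total counts ran from 12784960 to 19604103 per library. One library stood apart: in MET+LEU replicate 6 nuclear ribosomal RNA took 5.85% and mitochondrial ribosomal RNA 7.64% of the counts, against at most 1.96% and 0.760% in the other 29, and its scaling factor was 0.803. The calls of the genes described in MET+LEU vs. SD, and the members' other calls that involve MET+LEU, are therefore also given without it. The rest of the MET+LEU group also had lower scaling factors (0.968 to 0.985) than every library of the other groups (0.997 to 1.034). Their mitochondrial ribosomal RNA share was 0.649% to 0.760%, against 0.219% to 0.367% in 2% HS and SD. That share was 0.501% to 0.710% in LEU and 0.244% to 0.705% in MET, so it overlapped between MET+LEU and each single agent. The difference in scaling factors goes with the MET+LEU treatment and cannot be told apart from it. The myotube markers (Myog, Ckm, Acta1, Des, Tnnt3, Myh3, Actn2, Ttn) were counted in every group. Their summed level was 37836 to 40756 CPM (counts scaled to library size and composition) in 2% HS and 31107 to 33641 CPM in SD. It was 27763 to 31317 CPM in MET, 34414 to 36155 CPM in LEU and 29762 to 38080 CPM in MET+LEU. Of the markers of other cells, Ptprc (leukocytes), Epcam (epithelium) and Adipoq (adipocytes) were at 0 counts in 27, 29 and 27 of the 30 libraries, and Pecam1 (endothelium) never passed 7 counts.

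The sequences below are from the members that moved, Sms and Smox, and from the related members Oaz1 and Oaz2. Their part in any difference of level was not tested. The first set is the DNA before the starts of Sms, the gene whose level fell without serum and was higher with MET+LEU. Sms lies on chromosome X and RefSeq gives it a pair of starts on GRCm38.p6, both on the minus strand. The capitals mark an E-box, CACGTG, the motif bound by Myc and Max, and the GC box, GGGCGG or its reverse complement, the motif bound by Sp1. The stretch before the outer start, chrX:157492288-157492537, 250 bases:
Sms outer: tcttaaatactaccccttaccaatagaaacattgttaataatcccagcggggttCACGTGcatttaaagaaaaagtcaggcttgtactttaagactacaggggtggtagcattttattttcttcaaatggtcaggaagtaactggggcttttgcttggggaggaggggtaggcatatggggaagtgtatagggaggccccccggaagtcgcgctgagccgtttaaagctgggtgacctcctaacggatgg
The stretch before the inner start that lies outside annotated exons, chrX:157491373-157491618, 246 bases:
Sms inner: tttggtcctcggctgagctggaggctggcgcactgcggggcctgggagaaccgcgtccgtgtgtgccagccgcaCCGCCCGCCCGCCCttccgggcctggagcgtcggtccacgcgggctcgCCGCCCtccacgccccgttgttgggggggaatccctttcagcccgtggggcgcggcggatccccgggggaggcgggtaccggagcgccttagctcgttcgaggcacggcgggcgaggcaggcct
The outer stretch was 47.2% G and C and held the E-box with its first base 196 bases before the start, whereas the inner stretch was 75.2% G and C and held 4 GC boxes, of which 3 overlap one another. Counts were summed per gene, so that the share of transcripts from each start was not measured.

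The second set is from Smox, the gene whose level rose without serum. Its RefSeq window on chromosome 2, plus strand, overlaps annotated exons, and the 110 bases between these exons, chr2:131491654-131491763, read as follows, with GC boxes in capitals:
Smox: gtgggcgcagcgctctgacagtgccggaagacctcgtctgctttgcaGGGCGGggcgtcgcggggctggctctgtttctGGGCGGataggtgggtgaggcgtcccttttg
The whole 250-base Smox window held 6 GC boxes. RefSeq windows of 250 bases were found for 7 of the 9 members, 8 windows in all, and each motif was searched on both strands. The E-box was in 1 of the 8 windows, that of Sms, and in 6.02% of all 32851 windows. The GC box was in 6 of the 8 windows and in 32.7% of all. Besides Smox and the inner start of Sms, these were the windows of Odc1, Amd1, Oaz2 and Sat1. Those 4 genes passed in neither SD vs. 2% HS nor MET+LEU vs. SD. The TATA box, TATAAA, was in 0 of the 8 windows and in 12.4% of all, and the E-box and the GC box did not overlap in any printed stretch. These are matches of letters and not measured binding sites. The shares of all windows cover every base composition, while the 8 member windows were 47.2% to 80% G and C. No share matched for base composition was taken, so the shares set side by side are not of like windows.

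The third set is the frameshift site of the antizymes, the sequence by which polyamines are known to raise antizyme protein: the ribosome meets a stop codon early in the message and must slip forward by 1 base to make the full protein. The capitals mark the last sense codon and the stop codon in the first frame, with 30 coding bases on each side, from GENCODE M21 transcripts on the plus strand of GRCm38, at chr10:80828262-80828327 for Oaz1 and chr9:65686239-65686304 for Oaz2:
Oaz1: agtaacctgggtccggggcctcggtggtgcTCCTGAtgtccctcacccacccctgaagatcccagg
Oaz2: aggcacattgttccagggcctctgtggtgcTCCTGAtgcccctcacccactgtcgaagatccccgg
Of these 66 bases 53, or 80.3%, were identical, including the TCCTGA itself. The levels of both messages are given below, and no count shows how often ribosomes shifted.

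Levels of the 9 genes can be compared with each other only per length, here as CPM per kilobase of exon, averaged over the 30 libraries. The length is that of all annotated exons merged, such as 1599 bases for Srm and 6010 for Sms. The lengths of the transcripts expressed were not measured, so the order of the genes also depends on this divisor. Oaz1, which encodes antizyme 1, was highest at 47.8 ± 6.2 (SD, n = 30), a level above that of 95.2% of the genes tested, and it was above the next gene in 30 of 30 libraries. Azin1, which encodes the antizyme inhibitor, followed at 25.6 ± 1.8, and Odc1, ornithine decarboxylase itself, at 24.3 ± 1.8. These neighbours lay within their spread, since Azin1 was above Odc1 in 23 of 30 libraries.

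Oaz2, encoding antizyme 2, was at 21.98 ± 1.7 CPM per kilobase, Srm, spermidine synthase, at 19.7 ± 1.7 and Sms, spermine synthase, at 17.96 ± 1.5. Sat1, the spermidine/spermine acetyltransferase that starts export and back-conversion, was at 14.4 ± 1.2, Amd1, adenosylmethionine decarboxylase, at 10.7 ± 0.66 and Smox, spermine oxidase, at 8.79 ± 0.96. Odc1 was above Oaz2 in 25, Oaz2 above Srm in 24 and Srm above Sms in 24 of the 30 libraries, so that these middle places in the order were not fixed from library to library. Sms was above Sat1 and Sat1 above Amd1 in all 30, and Amd1 was above Smox in 29.

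**Figure D1:**
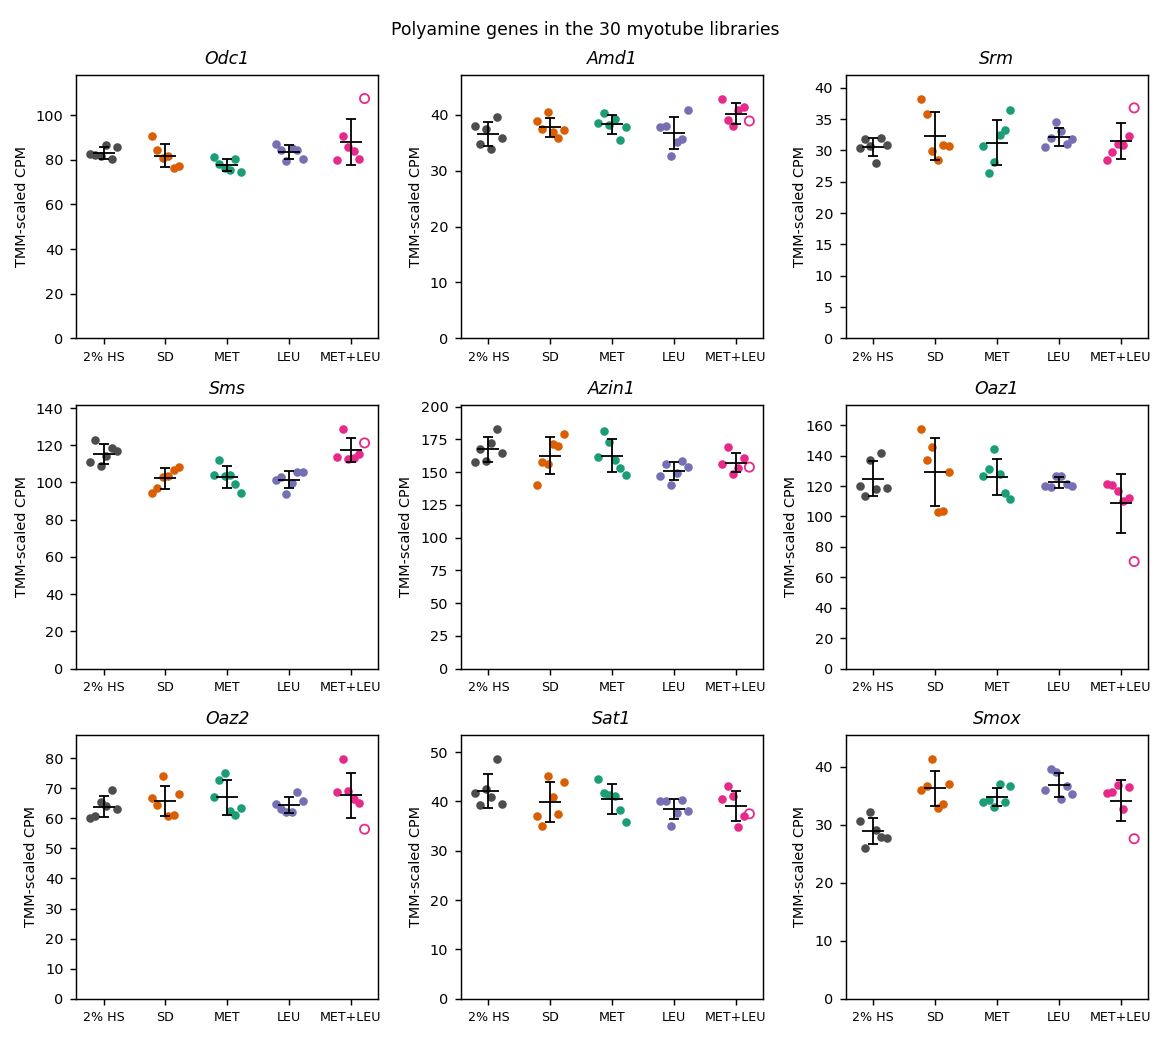
Level of each of the 9 polyamine genes (y axis, TMM-scaled CPM, from 0) in the 30 libraries by group (x axis). Each point is a library, the open circle is MET+LEU replicate 6, and the bars are the mean and SD of 6 libraries. The Sms libraries of SD, MET and LEU run from 93.7 to 112 CPM and those of 2% HS and MET+LEU from 109 to 129 CPM, and Smox is lower in 2% HS (26.003 to 32.3 CPM) than in SD (32.9 to 41.4 CPM).

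In SD vs. 2% HS, 2 of the 9 genes passed an adjusted p of 0.05, which is 22.2%, and 27.8% of all genes tested did, so the genes as a set were not called more often than the background. Both genes act on spermine: the synthase Sms fell and the oxidase Smox rose. Both were also without overlap between the 6 SD and the 6 2% HS libraries, and 13.6% of all genes tested had no overlap, in either direction. The median log2 fold change of the 9 genes was 0.05, beside 0.00 over all genes, and of the 9, 5 were higher and 4 lower in SD. Tests throughout were quasi-likelihood fits in edgeR, p-values were adjusted by Benjamini and Hochberg's method over the 15907 genes, and fold changes are on a log2 scale.

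The first step of synthesis gave no call. Odc1, which makes putrescine from ornithine, had a lowest, median and highest level of 80.1, 82.3 and 86.5 CPM in 2% HS and of 76.4, 81.2 and 90.4 CPM in SD. The groups overlapped, with the log2 fold change at -0.02 ± 0.05 (SE, n = 6 per group) and an adjusted p of 0.7873 by edgeR. The 95% interval of the difference ran from -0.12 to 0.08.

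Amd1, which makes the aminopropyl donor, had 33.9, 36.6 and 39.6 CPM (lowest, median, highest) in 2% HS and 35.8, 37.4 and 40.6 CPM in SD, a log2 fold change of 0.05 ± 0.05 (SE, edgeR adjusted p = 0.5082). Srm, which adds the first aminopropyl group, had 27.99, 30.7 and 32.0 CPM in 2% HS and 28.4, 30.8 and 38.3 CPM in SD, 0.08 ± 0.07 (SE, edgeR adjusted p = 0.3786). Both genes overlapped between the groups, and the 2 highest Srm values of the SD group lay above every 2% HS library.

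Sms, which adds the second aminopropyl group to make spermine, was the one synthesis gene that fell. Its lowest, median and highest levels were 109, 115 and 123 CPM in 2% HS and 94.1, 103 and 109 CPM in SD. All 6 SD libraries lay below all 6 libraries of 2% HS, although the highest SD value (108.6 CPM) and the lowest 2% HS value (108.8 CPM) were close. The log2 fold change was -0.17 ± 0.04 (SE, n = 6 per group), a fall of 11.4%, with an edgeR adjusted p of 0.001296, and its 95% interval ran from -0.26 to -0.09.

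The regulators of ornithine decarboxylase did not pass. Azin1, whose product frees the enzyme from antizyme, had 158, 166 and 183 CPM in 2% HS and 140.0, 164 and 179 CPM in SD (log2 fold change -0.04 ± 0.05 SE, edgeR adjusted p = 0.5452). Oaz1 had 114, 119 and 142 CPM in 2% HS and 103, 133 and 158 CPM in SD (0.05 ± 0.11 SE, adjusted p = 0.7655). Its SD libraries lay both above and below those of 2% HS, with a coefficient of variation of 17.2% against 9.30%. Oaz2 had 60.1, 63.7 and 69.6 CPM in 2% HS and 60.9, 65.6 and 74.1 CPM in SD (0.05 ± 0.06 SE, adjusted p = 0.6003).

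Of the catabolic genes, the oxidase passed and the acetyltransferase did not. Sat1 had 39.2, 41.3 and 48.6 CPM in 2% HS and 35.1, 39.1 and 45.1 CPM in SD, and the groups overlapped (log2 fold change -0.08 ± 0.06 SE, edgeR adjusted p = 0.3809). Smox, which oxidises spermine to spermidine with release of hydrogen peroxide, had 26.003, 28.5 and 32.3 CPM in 2% HS and 32.9, 36.4 and 41.4 CPM in SD. All 6 SD libraries were above all 6 libraries of 2% HS. The log2 fold change was 0.32 ± 0.06 (SE, n = 6 per group), a rise of 25.2%, with an edgeR adjusted p of 4.07e-05 and a 95% interval from 0.20 to 0.45. The difference between the responses of Sat1 and Smox was not tested.

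Markers moved in the same comparison. Of the 8 myotube markers, 3 fell (Ckm, Actn2 and Ttn, with log2 fold changes of -0.98, -0.34 and -0.33) and 1 rose (Des, 0.13), and of the 5 myoblast and cycling markers Pax7, the satellite cell factor, fell by 0.37 on the log2 scale while Myf5, Mki67, Top2a and Cdk1 did not pass. Their part in the lower Sms and higher Smox levels was not tested.

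**Figure D2:**
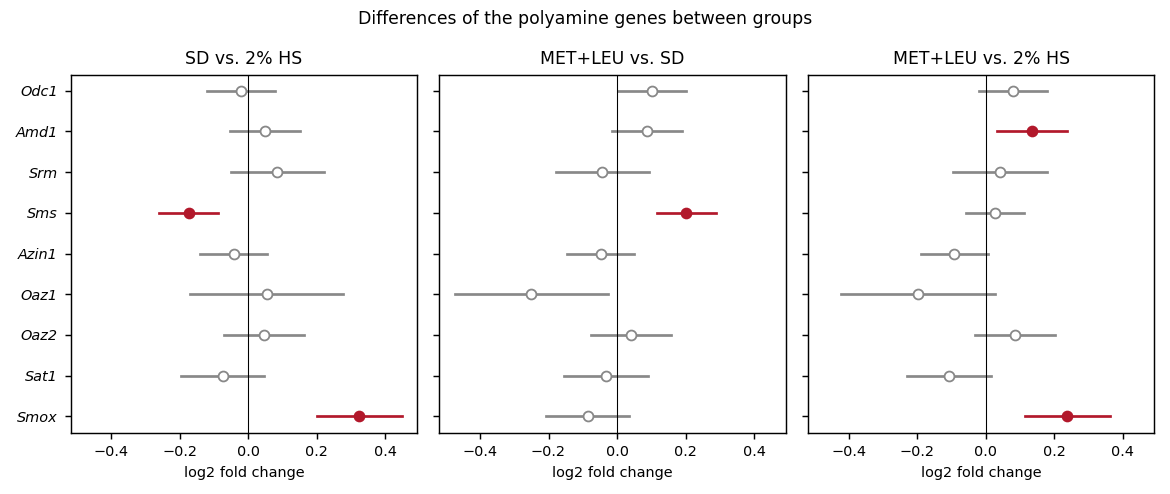
Log2 fold change of the 9 genes (x axis) in SD vs. 2% HS, MET+LEU vs. SD and MET+LEU vs. 2% HS, from edgeR on 30 libraries. Lines are 95% intervals and filled red points passed an adjusted p of 0.05: Sms (-0.17) and Smox (0.32) on the left, Sms (0.20) in the middle, and Amd1 (0.14) and Smox (0.24) on the right.

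Each single agent was compared with the same 6 SD libraries, and so was MET+LEU, so these comparisons share their controls. In MET vs. SD 0 of the 9 genes passed, against 0.157% of all genes tested, and 0 had an unadjusted edgeR p under 0.05. The log2 fold changes lay between -0.08 (Odc1) and 0.02 (Oaz2). In LEU vs. SD 0 of the 9 passed, against 0.553% of all genes, and 1 had an unadjusted p under 0.05, Azin1, with 140.2, 152 and 159 CPM in LEU and a log2 fold change of -0.11 ± 0.05 (SE, edgeR adjusted p = 0.4477). DESeq2's Wald test and limma-voom also called 0 of the 9 in both comparisons.

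The values of Sms and Smox in the treated groups are the base of what follows. Sms had a lowest, median and highest level of 94.6, 104 and 112 CPM in MET and of 93.7, 102 and 106 CPM in LEU. Smox had 33.1, 34.2 and 37.0 CPM in MET and 34.4, 36.4 and 39.7 CPM in LEU. Both genes overlapped with SD in both groups, with 95% intervals of the log2 difference from SD of -0.07 to 0.10 (MET) and -0.10 to 0.08 (LEU) for Sms and of -0.18 to 0.06 (MET) and -0.10 to 0.14 (LEU) for Smox.

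In MET+LEU vs. SD 1 of the 9 genes passed, 11.1%, against 18.4% of all genes tested, and it was Sms. Sms had 113, 114 and 129 CPM (lowest, median, highest) in MET+LEU. No MET+LEU library overlapped with SD and each was higher. A lack of overlap, in either direction, was found for 1 of the 9 and for 5.34% of all genes tested. The log2 fold change was 0.20 ± 0.04 (SE, n = 6 per group), a rise of 15.04%, with an edgeR adjusted p of 5.615e-04 and a 95% interval from 0.12 to 0.29. Without MET+LEU replicate 6, which had the second highest Sms level of its group at 121 CPM, it was 0.19 ± 0.04 (adjusted p = 0.001193). The median log2 fold change of the 9 genes was -0.03, beside -0.01 over all genes.

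The other gene that had moved without serum, Smox, did not pass here. It had 27.6, 35.6 and 37.0 CPM in MET+LEU, overlapping with SD (log2 fold change -0.09 ± 0.06 SE, edgeR adjusted p = 0.3532), and its lowest library was MET+LEU replicate 6. Without that library the fold change was -0.04 ± 0.06 (adjusted p = 0.6996).

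Odc1 and Oaz1 had an unadjusted edgeR p under 0.05 and failed the adjustment. Odc1 had 80.1, 84.7 and 107 CPM in MET+LEU (log2 fold change 0.10 ± 0.05 SE, adjusted p = 0.1429), and Oaz1 had 70.4, 115 and 122 CPM (-0.25 ± 0.11 SE, adjusted p = 0.1121). For both genes the extreme value was MET+LEU replicate 6, the highest library for Odc1 and the lowest for Oaz1. Without it the log2 fold changes were 0.03 ± 0.04 for Odc1 and -0.16 ± 0.09 for Oaz1. Without SD replicate 4 or SD replicate 5, in contrast, the Oaz1 difference was -0.31 and passed (edgeR adjusted p = 0.04163 and 0.0448).

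The ratio of Odc1 to Oaz1, enzyme message to antizyme message per kilobase, shows the weight of that library. It averaged 0.64 ± 0.25 (SD, n = 6) with MET+LEU, where the single highest value was 1.15, and 0.50 ± 0.05 with serum. The means of the SD, MET and LEU groups were 0.48 ± 0.07, 0.47 ± 0.05 and 0.51 ± 0.03. The ratio of Sms to Srm, the second to the first aminopropyl transferase, averaged 1.00 ± 0.05 with serum and 1.00 ± 0.10 with MET+LEU, and 0.85 ± 0.13, 0.89 ± 0.15 and 0.84 ± 0.07 in the SD, MET and LEU groups.

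The remaining 5 genes overlapped between MET+LEU and SD. Amd1 had 37.95, 39.9 and 42.9 CPM in MET+LEU with 3 libraries above every SD library (log2 fold change 0.09 ± 0.05 SE, edgeR adjusted p = 0.2382). Srm had 28.4, 30.9 and 36.8 CPM, Azin1 149, 155 and 169 CPM, Oaz2 56.4, 67.7 and 79.7 CPM and Sat1 34.9, 39.0 and 43.2 CPM. The log2 fold changes of these last 4 genes against SD lay between -0.05 and 0.04, and the adjusted p-values between 0.5443 and 0.7762. The uncalled differences of Srm and Oaz2 moved from -0.04 to -0.09 and from 0.04 to 0.08 without MET+LEU replicate 6.

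Cycling markers were lower in MET+LEU vs. SD: Top2a, Cdk1 and Mki67, genes of DNA replication and mitosis, fell by 0.64, 0.61 and 0.35 on the log2 scale (by 0.63, 0.56 and 0.46 without replicate 6), while Pax7 and Myf5 did not pass. The summed myoblast and cycling marker level was 308 to 346 CPM in SD and 270 to 294 CPM in MET+LEU. It was 285 to 349 CPM in MET and 286 to 323 CPM in LEU. Of the 5 markers, 1 passed in LEU vs. SD, as a fall, and 3 had an unadjusted edgeR p under 0.05. In MET+LEU vs. LEU 0 of the 5 passed. Of the 8 myotube markers, Tnnt3 and Myh3 rose (0.82 and 0.36), and without MET+LEU replicate 6 these differences were 0.64 and 0.21, with both calls kept. The part of these markers in the Sms level was not tested.

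Against 2% HS, MET+LEU differed in 2 of the 9 genes, 22.2%, beside 42.3% of all genes tested. Smox was still higher than in serum, with 5 of 6 MET+LEU libraries above all 6 of 2% HS (log2 fold change 0.24 ± 0.06 SE, edgeR adjusted p = 0.001486), and the exception was replicate 6, without which the difference was 0.28 ± 0.06. Amd1 was higher too (0.14 ± 0.05 SE, adjusted p = 0.02587), with 3 of 6 libraries above all 2% HS libraries and overlap between the groups. The Amd1 call was lost in 6 of the fits that left out a library, those without 2% HS replicate 2, 4 or 6 (0.11, 0.10 and 0.12) and without MET+LEU replicate 1, 4 or 5 (0.11, 0.12 and 0.12), with adjusted p-values of 0.06839 to 0.117, and without MET+LEU replicate 6 the call was kept (0.14). Sms did not pass (0.03 ± 0.04 SE, adjusted p = 0.6329), with a 95% interval of the difference from -0.06 to 0.11.

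Sms also separated MET+LEU from each single agent. In MET+LEU vs. LEU it was the 1 of 9 genes that passed (11.1%, beside 6.28% of all genes), with a log2 fold change of 0.21 ± 0.04 (SE, edgeR adjusted p = 0.001899) and 6 of 6 MET+LEU libraries above every LEU library. Without MET+LEU replicate 6 it was 0.19 ± 0.04 (adjusted p = 0.005226). Without LEU replicate 6, 2 of the 9 passed. In MET+LEU vs. MET 2 of 9 passed (22.2%, beside 8.69% of all genes). These were Sms at 0.19 ± 0.04 (adjusted p = 0.003616), again with 6 of 6 libraries above, and Odc1 at 0.18 ± 0.05 (adjusted p = 0.01635), with 4 of 6 above. For Sms the lowest MET+LEU value (112.8 CPM) and the highest MET value (112.3 CPM) were close. The share of all genes without overlap was not counted for MET+LEU vs. LEU or MET+LEU vs. MET. Without MET+LEU replicate 6 the Odc1 difference was 0.11 ± 0.04 and the call was lost (adjusted p = 0.1199), while Sms stayed at 0.17 ± 0.04 (adjusted p = 0.009207).

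The order of the Sms group means was MET+LEU (118 ± 6.4 CPM, SD, n = 6), 2% HS (115 ± 5.2), MET (103 ± 5.9), SD (102 ± 5.6) and LEU (101 ± 4.5). The first 2 did not differ beyond their spread, nor did the last 3. For Smox the order was LEU (36.9 ± 2.1 CPM), SD (36.3 ± 3.0), MET (34.9 ± 1.6), MET+LEU (34.2 ± 3.5) and 2% HS (28.96 ± 2.3), and the 4 serum-deprived groups lay within their spread of each other.

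The interaction of metformin and leucine asks whether the difference of MET+LEU from SD departs from the sum of the single differences on the log2 scale. 0 of the 9 genes passed by edgeR, DESeq2 or limma-voom, against 0.0503% of all genes tested by edgeR. The unadjusted edgeR p was under 0.05 for Sms (0.20 ± 0.06 SE, adjusted p = 0.2524) and Odc1 (0.15 ± 0.07 SE, adjusted p = 0.5124). The 95% interval for Sms was 0.08 to 0.32. The Sms interaction therefore failed the correction, although each of the 3 pairwise differences of MET+LEU from a serum-deprived group passed it.

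Some pairs of the 9 genes also varied together, or in opposite directions, among the replicates of a group. As deviations from the group means over 30 libraries, log2 levels of Sms and Azin1 had a Pearson r of 0.82, Oaz1 and Oaz2 0.75, Oaz1 and Smox 0.63 and Srm and Azin1 -0.65. Of the 36 pairs, 8 had an r beyond 0.5 in size, 22.2% beside 4.63% of all pairs of tested genes. The latter share covers genes of every level, while even the lowest member, Smox, lay above 67.3% of them per kilobase. No share matched for level was taken, so the 2 shares are not of like genes. When MET+LEU replicate 6 was left out, the 4 values above were 0.84, 0.65, 0.39 and -0.68, so that the Oaz1 and Smox value leaned on that library. The values of a pair come from the same libraries with their common depth, scaling and RNA composition, and they are given as a description.

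**Figure D3:**
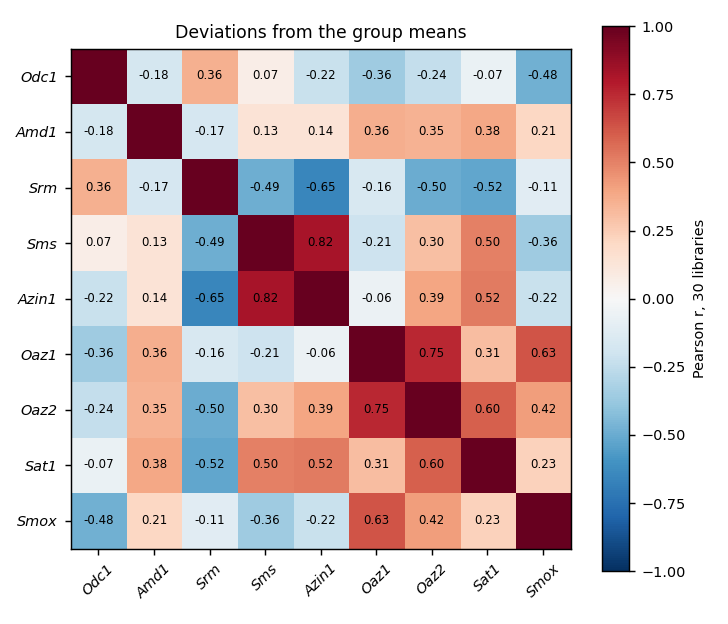
Pearson r between the 9 genes (rows and columns) over 30 libraries, computed on log2 levels after taking out the group means. Red is positive and blue negative. Azin1 with Sms (0.82) and Oaz1 with Oaz2 (0.75) are the highest values, and Srm with Azin1 (-0.65) is the lowest.

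Over all 30 libraries, group differences included, the tested genes closest to Odc1 in log2 level were Lonp2, Idh3b, Tpm2, Myoz2 and Myo18a, with a Pearson r of 0.72 to 0.76. Those closest to Sat1 were Sdc4, Cse1l, Scpep1, Scarb2 and Fbxw2, with 0.68 to 0.74. No other member was among these 10. The highest Odc1 level, 107 CPM, was that of MET+LEU replicate 6, and these r values were not computed without that library.

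Around the 9 genes, 46 genes of the wider pathway were listed and 33 were tested. In SD vs. 2% HS 7 of the 33 rose and 6 fell, 39.4% beside 27.8% of all genes tested, with a median log2 fold change of 0.05 (0.00 over all genes). Between MET+LEU and SD 2 rose and 6 fell, 24.2% beside 18.4%, with a median of -0.05 (-0.01 over all genes). These background shares hold for the counts of each list below, which have 4 to 7 tested genes. In MET vs. SD 0 of the 33 passed by edgeR, with 3 at an unadjusted p under 0.05, and in LEU vs. SD 1 passed, Slc7a1, named here after its value was seen.

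Among the other enzymes and paralogs 1 of the 4 tested rose in SD vs. 2% HS and 0 fell, namely Azin2, a second antizyme inhibitor. It had 11.8, 14.1 and 14.6 CPM (lowest, median, highest) in 2% HS and 15.1, 17.2 and 23.8 CPM in SD, without overlap (log2 fold change 0.38 ± 0.09 SE, edgeR adjusted p = 0.001372). In MET+LEU vs. SD 0 of the 4 passed, with 1 at an unadjusted p under 0.05. The polyamine oxidase Paox, the acetyltransferase paralog Sat2 and Amd2 passed in neither comparison.

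In the supply of arginine and ornithine, 2 of 6 tested genes rose and 2 fell in SD vs. 2% HS, where 27.8% of all genes were called. The cationic amino acid transporters went apart: Slc7a2 had 148, 154 and 161 CPM in 2% HS and 198, 205 and 213 CPM in SD (log2 fold change 0.41 ± 0.04 SE, edgeR adjusted p = 2.924e-12), whereas Slc7a1 had 112, 118 and 121 CPM in 2% HS and 91.2, 95.3 and 101 CPM in SD (-0.30 ± 0.04 SE, adjusted p = 3.208e-09). Neither gene overlapped between the groups.

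Gatm, which takes arginine into creatine synthesis and releases ornithine, fell by 0.46 on the log2 scale, and Oat, the ornithine aminotransferase, rose by 0.19. With MET+LEU, 1 of the 6 rose and 1 fell relative to SD, the same transporters in the same directions as without serum. Slc7a2 had 207, 225 and 242 CPM in MET+LEU (0.13 ± 0.04 SE, edgeR adjusted p = 0.009521) and Slc7a1 74.9, 81.1 and 83.3 CPM (-0.25 ± 0.04 SE, adjusted p = 2.456e-06). Both calls were kept without MET+LEU replicate 6, at 0.11 and -0.27. The comparisons share the SD libraries.

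In the supply and salvage of S-adenosylmethionine 1 of 7 tested genes rose and 1 fell in SD vs. 2% HS. Mtap, the phosphorylase that clears the methylthioadenosine left by spermidine and spermine synthesis, rose by 0.23, and Mat2a, the synthetase that makes S-adenosylmethionine, fell by 0.23 on the log2 scale, both without overlap. Mat2a had 235, 249 and 258 CPM in 2% HS and 204, 213 and 216 CPM in SD. In MET+LEU vs. SD its log2 fold change was -0.00 ± 0.03 (SE, edgeR adjusted p = 0.9939), while the salvage enzymes Adi1 rose (0.26 ± 0.08 SE, adjusted p = 0.02127) and Mri1 fell (-0.21 ± 0.06 SE, adjusted p = 0.007105). The Adi1 call was lost without SD replicate 1, 3 or 6 or MET+LEU replicate 6 (log2 fold changes 0.19, 0.24, 0.23 and 0.24) and under limma-voom (0.23, adjusted p = 0.07108). The Mri1 difference was -0.18 without MET+LEU replicate 6, with the call kept.

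Hypusine, made from spermidine, is carried by the translation factor eIF5A. Of the 4 tested genes 1 rose in SD vs. 2% HS, the paralog Eif5a2 (0.29 ± 0.11 SE, edgeR adjusted p = 0.03834), and its call was lost without 2% HS replicate 3, 4 or 5 or SD replicate 3 or 5 (0.22 to 0.29) and under limma-voom (0.26, adjusted p = 0.06519). Between MET+LEU and SD 1 of 4 fell, Eif5a itself, with 389, 413 and 486 CPM in SD and 247, 364 and 394 CPM in MET+LEU (-0.29 ± 0.07 SE, adjusted p = 0.005922). Without MET+LEU replicate 6 the Eif5a difference was -0.22 ± 0.05 (adjusted p = 0.001126). Dhps and Dohh, the enzymes that make hypusine, passed in neither, although Dohh was next to the threshold in SD vs. 2% HS (0.26 ± 0.10 SE, adjusted p = 0.05011). The count of the list in SD vs. 2% HS was 2 under DESeq2 size factors, the DESeq2 Wald test, no filter, omission of ribosomal RNA and mitochondrial genes, the replicate block and omission of SD replicate 2, MET replicate 3, MET replicate 6 or MET+LEU replicate 6, and 0 under limma-voom, at an adjusted p of 0.01 and without 2% HS replicate 3 or 5 or SD replicate 3.

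Of 5 tested transport genes 1 fell in SD vs. 2% HS, Slc3a2, the heavy chain of several amino acid transporters (-0.23 ± 0.04 SE, edgeR adjusted p = 5.399e-06). Relative to SD, 2 of 5 fell with MET+LEU, Slc3a2 (-0.17 ± 0.04 SE, adjusted p = 0.001354) and Gpc1, the heparan sulfate proteoglycan glypican-1 (-0.18 ± 0.06 SE, adjusted p = 0.03404). The Gpc1 call was lost without SD replicate 1 or 2 (-0.16 and -0.18) and under limma-voom (-0.12, adjusted p = 0.06988). With MET+LEU replicate 6 left out, the differences were -0.17 for Slc3a2 and -0.11 for Gpc1, and both calls were kept.

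The Myc network was listed because Odc1 is a known target of Myc. Myc itself did not pass in SD vs. 2% HS (log2 fold change 0.10 ± 0.07 SE, edgeR adjusted p = 0.3134) or MET+LEU vs. SD (-0.00 ± 0.07 SE, adjusted p = 0.995). Of 7 tested genes 2 rose in SD vs. 2% HS, Mxd4 (0.39) and Mxd1 (0.19), and 2 fell, Mxi1 (-0.17) and Mnt (-0.14). All 4 encode partners of Max that repress E-box genes. The Mxi1 call was lost without 2% HS replicate 1 or 2 or SD replicate 3 or 5 (-0.14 to -0.15), and the Mnt call without 2% HS replicate 4 or 6 or SD replicate 6 (-0.11 to -0.13). In MET+LEU vs. SD 0 rose and 1 of 7 fell, Mnt (-0.17 ± 0.05 SE, adjusted p = 0.01002). It was -0.14 without MET+LEU replicate 6, with the call kept, and limma-voom ended the call (-0.13, adjusted p = 0.0849).

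**Figure D4:**
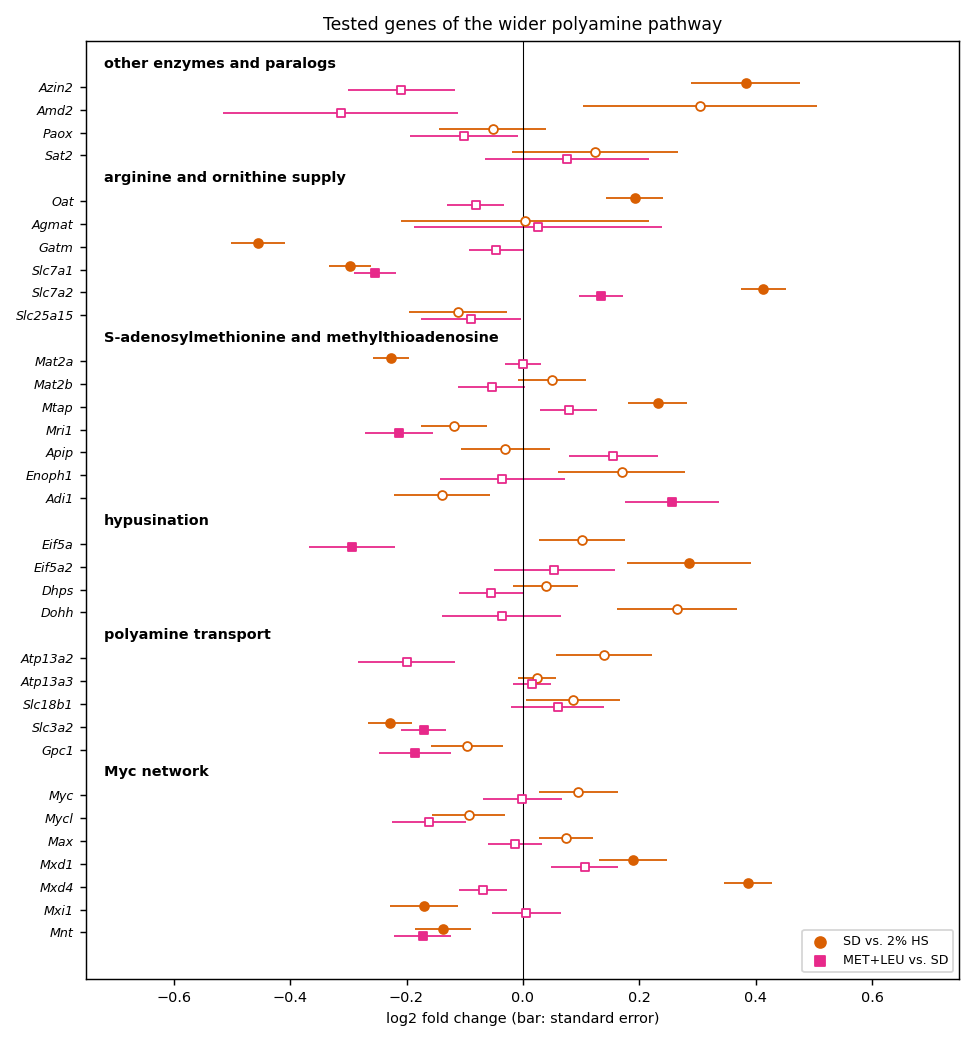
Log2 fold change (x axis, bar: standard error) of the 33 tested genes of the wider pathway, by list, in SD vs. 2% HS (orange circles) and MET+LEU vs. SD (pink squares); filled symbols passed an adjusted p of 0.05. Slc7a1 lies left of 0 and Slc7a2 right of 0 in both comparisons. Mat2a is at -0.23 in SD vs. 2% HS and at -0.00 in MET+LEU vs. SD. It thus stayed at its SD level with MET+LEU, and in MET+LEU vs. 2% HS (not drawn) it was at -0.23.

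Copies of members were looked for by symbol only, as a member name or its stem followed by -ps, and Amd2 was added. Those found were copies of Amd1, Oaz1, Oaz2 and Sms, and copies under other names were not counted. Counts of the copies found ran from 0 to at most 34 per library (Amd2). They were 7 to 28 for Oaz1-ps and 1 to 19 for Sms-ps, against 336 to 3402 for the 9 genes. How reads that match several places were handled is not given in the sources used here. Azin1 overlaps an annotated antisense gene, Gm49077, and Odc1, Azin1 and Oaz1 hold small RNA genes on their own strand, so the counts of these 3 genes carry that uncertainty.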

How the data were processed

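Total RNA was depleted of ribosomal RNA, made into stranded libraries and sequenced as paired 150-base reads. Per the labels and the submitters' processing notes, the tools were cutadapt 1.16, STAR 2.7.6a, featureCounts 1.6.3 and DESeq2 1.30.1 and the build GRCm38. The authors deposited raw counts per Ensembl gene and library, whole numbers without normalization. Annotation release, strand setting and handling of multiply mapped reads are not given in the sources used here. Identifiers were matched to GENCODE M21 (55227 of 55487).

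Groups came from the sample labels. Genes with low counts were removed with edgeR's filterByExpr (minimum count 10, minimum total 15), which kept 15907. Counts were scaled by TMM and fitted in edgeR 4.0.16 (R 4.3.3) with the robust quasi-likelihood test over all 30 libraries, 8 comparisons, with p-values adjusted over these genes (Benjamini-Hochberg, threshold 0.05). Levels are TMM-scaled CPM, and per kilobase levels divide by the merged exon length. The 95% intervals use the quasi-likelihood standard error. Calculations were tested on simulated counts. Alternatives included DESeq2 1.42.0, limma-voom (limma 3.58.1), other scalings and filters, a replicate block and leaving out each library. Sequences are from RefSeq promoter windows (GRCm38.p6) and GENCODE M21 transcripts.

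The members and the gene lists were chosen with earlier results of these data known. Named were all 9 members, each tested gene of the wider lists past the threshold in SD vs. 2% HS or MET+LEU vs. SD, copies of members by their counts, and the 5 genes most alike to Odc1 and to Sat1 (mean log2 CPM 1 or higher). The depth, 12784960 to 19604103 counts per library, gave each member at least 336 counts in every library.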

Additional observations from a re-analysis of the deposited data

Results flagged for a closer look

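Each of the 9 genes was examined for a lone library in each group of 6, which makes 45 sets, and 2 had one whose gap to the nearest library passed Dixon's critical value. Chance alone gives about 1 such set in 20. Oaz1 was at 70.4 CPM in MET+LEU replicate 6 while the next lowest library of the group was at 110 CPM. This is the library with the high share of ribosomal RNA, and the part of that share in the Oaz1 level was not tested. Sat1 was at 48.6 CPM in 2% HS replicate 5 while the next highest was at 42.6 CPM.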

How the results depend on the processing

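In 41 alternatives, 30 of which left out a library, Sms and Smox in SD vs. 2% HS, Sms in MET+LEU vs. SD, LEU and MET, and Smox in MET+LEU vs. 2% HS kept direction and call, and 0 members were called in MET vs. SD, LEU vs. SD and the interaction. For MET+LEU vs. 2% HS the count of 2 members became 1, with Amd1 lost, under upper-quartile scaling (0.11, adjusted p = 0.07433), without the filter (0.14, adjusted p = 0.06866) and at an adjusted p of 0.01, and leaving out a library gave 1 to 3. For MET+LEU vs. MET the count of 2 became 1, with Odc1 lost, under limma-voom (0.12), with only the groups compared (0.17) and at an adjusted p of 0.01, and leaving out a library gave 1 to 2. With the groups compared and MET+LEU replicate 6 left out, an alternative chosen after seeing the data, it was also 1. Leaving out a library gave 1 to 2 members in MET+LEU vs. SD and 1 to 2 in MET+LEU vs. LEU. Signs turned for uncalled values: Oaz1 in SD vs. 2% HS under limma-voom (-0.0049) and over the left-out libraries (-0.015 to 0.11), and, in MET+LEU vs. SD, Srm (-0.094 to 0.0061) and Oaz2 (-0.0196 to 0.0802). When only the groups compared were fitted, Slc7a2, Mri1, Adi1, Eif5a, Gpc1 and Mnt lost their calls in MET+LEU vs. SD (adjusted p = 0.05398 to 0.2172). The causes were not tested.

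Same-numbered libraries of different groups had a mean correlation of deviations of 0.016 over 60 pairs, and 9 of 30 libraries correlated best with their own number, so the numbers were not taken as pairs. A replicate block changed no count for the members (SD vs. 2% HS stayed at 2, MET+LEU vs. SD at 1), with Sms at 0.20 in the latter. At these depths the standard errors of the members' pairwise log2 fold changes were 0.04 to 0.11, which limits what smaller differences can show.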
